A study of Mus musculus with 61 samples.

Results

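The genes examined here were 9 listed genes of neural cell adhesion, out of 46078 genes in the deposited table: Ncam1, Nrxn2, Nrxn3, Nlgn1, Nlgn2, Nlgn3, Cadm1, Cadm2 and Chl1. They were chosen by name, as members of the neural cell adhesion, neurexin, neuroligin and SynCAM families, and all 9 passed the filter on low counts that left 24004 genes to test. The cells came from ductal organoids of C57BL/6 mouse pancreas, three-dimensional epithelial cultures grown from adult ducts. They had been infected with separate doxycycline-inducible lentiviruses for GFP-Ngn3, LSSOrange-Pdx1 and tdTomato-MafA, together with a Tet-On 3G transactivator driven by the PGK promoter. After 8 days of induction, cells were sorted by their reporters into pools of 50. The reporters of Pdx1, MafA or the pair of them, each with or without that of Ngn3, gave 6 combinations. Each combination was sorted from WT cultures, which received Ngn3 in its wild-type form, and from 6SA cultures, which received a phospho-mutant Ngn3 with 6 serines changed to alanine, and this made 12 conditions of 2 or 3 biological replicates. The transactivator and doxycycline were common to all of them. Replicates 1 and 2 were at passage 2 and replicate 3 at passage 5. Uninfected cells and cells with Ngn3 alone were not analysed here, so every comparison is against cells that carried Pdx1, MafA or both.

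Neural adhesion molecules are membrane proteins of the immunoglobulin, neurexin and neuroligin families that hold neurons to each other and to glia. Ncam1 and Chl1, a relative of L1, act in neurite growth and axon guidance. Neurexins sit in presynaptic membranes and bind postsynaptic neuroligins, and the SynCAM proteins Cadm1 and Cadm2 join membranes across the synapse. Several of these proteins are not restricted to neurons. Ncam1 is present on islet endocrine cells, Cadm1 is widely made by epithelia, and neurexin and neuroligin proteins occur in β-cells, which share much of their secretory machinery with neurons. Ngn3 is a basic helix-loop-helix factor that specifies endocrine cells in the pancreas.

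The data were counts of reads on genes in 61 libraries, of which 58 had over 1000000 gene counts and were kept. Technical repeats were summed into 32 samples, 17 with Ngn3 and 15 without, that held 2579583 to 19461008 counts each. Levels are given as CPM, which is the count relative to 1000000 of the TMM-scaled library total. A count of 3, taken as the limit of detection, corresponded to 0.136 to 1.01 CPM depending on the sample, and this limit covers counting error only. The sorted combinations were checked on the vector genes. Neurog3, the gene of Ngn3, stood at 7.87 to 329 CPM in the 17 samples with Ngn3 and at 0 to 0.788 CPM in the other 15. Mafa stood at 3.46 to 12.7 CPM in Ngn3-Pdx1-MafA cells and at 0 to 0.116 CPM in Ngn3-Pdx1 cells, but was at 0 in at least 1 sample of Pdx1-MafA cells. Pdx1 stood at 4.22 to 19.3 CPM in MafA cells, a range that overlapped the 11.2 to 37.7 CPM of Pdx1 cells. The combinations also differed in factors that they shared. The Neurog3 median was 167 CPM in Ngn3-Pdx1-MafA cells, 38.5 in Ngn3-Pdx1 cells and 58.1 in Ngn3-MafA cells, with overlapping ranges. The Pdx1 median was 150 CPM in Ngn3-Pdx1-MafA cells, 33.2 in Ngn3-Pdx1 cells and 19.8 in Pdx1-MafA cells. Gene counts cannot tell the vector's transcript from the cell's own.

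Other cell type markers moved with Ngn3, and their part in the results below was not tested. The summed level of 8 endocrine markers, among them Chga, was 437 to 13391 CPM with Ngn3 and 1.32 to 8.36 CPM without, and all 8 were called higher. The summed level of 8 duct markers was 1643 to 17044 CPM with Ngn3 and 11000 to 57295 CPM without, with 4 called lower, among them Krt19 and Spp1. The summed level of 9 neuron markers was 36.7 to 1348 CPM with Ngn3 and 8.96 to 84.3 CPM without, with 7 of 9 called higher, among them Tubb3 and Snap25. The Schwann or glial list summed to 47.8 to 222 CPM with Ngn3 and 67.0 to 275 CPM without, with 2 genes called lower. Its defining gene Sox10 had no count in any sample. Acinar markers reached at most 10.3 CPM with Ngn3 and 12.7 CPM without, with 1 called lower and with Ptf1a and Amy2a5 at 0 in all samples. Mesenchyme, endothelium and leukocyte lists reached at most 397, 43.2 and 43.7 CPM with Ngn3 and 106, 7.22 and 27.1 CPM without, with 1 leukocyte gene called lower. In a pool of sorted cells, fewer cells that express a gene and less RNA per cell cannot be told apart.

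Adding Ngn3 changed the adhesion genes in both directions. Averaged over the 6 pairs of conditions with and without Ngn3, 6 of the 9 genes were called at an adjusted p under 0.05 in edgeR's quasi-likelihood test. Ncam1, Chl1, Cadm2, Nlgn1 and Nlgn3 rose, where 11.1% of all genes tested were called higher. Cadm1 fell, where 10.5% were called lower. DESeq2 called the same genes except Nlgn3. Nlgn2 and Nrxn3 were not called, and Nrxn2 could not be judged in this fit. The ratio of mean levels with and without Ngn3 had a median log2 of 2.16 over the 9 genes and of 0.09 over all genes tested that had enough counts. Each gene is described in turn below, and the plot of levels by sample shows all of them.

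**Figure D1:**
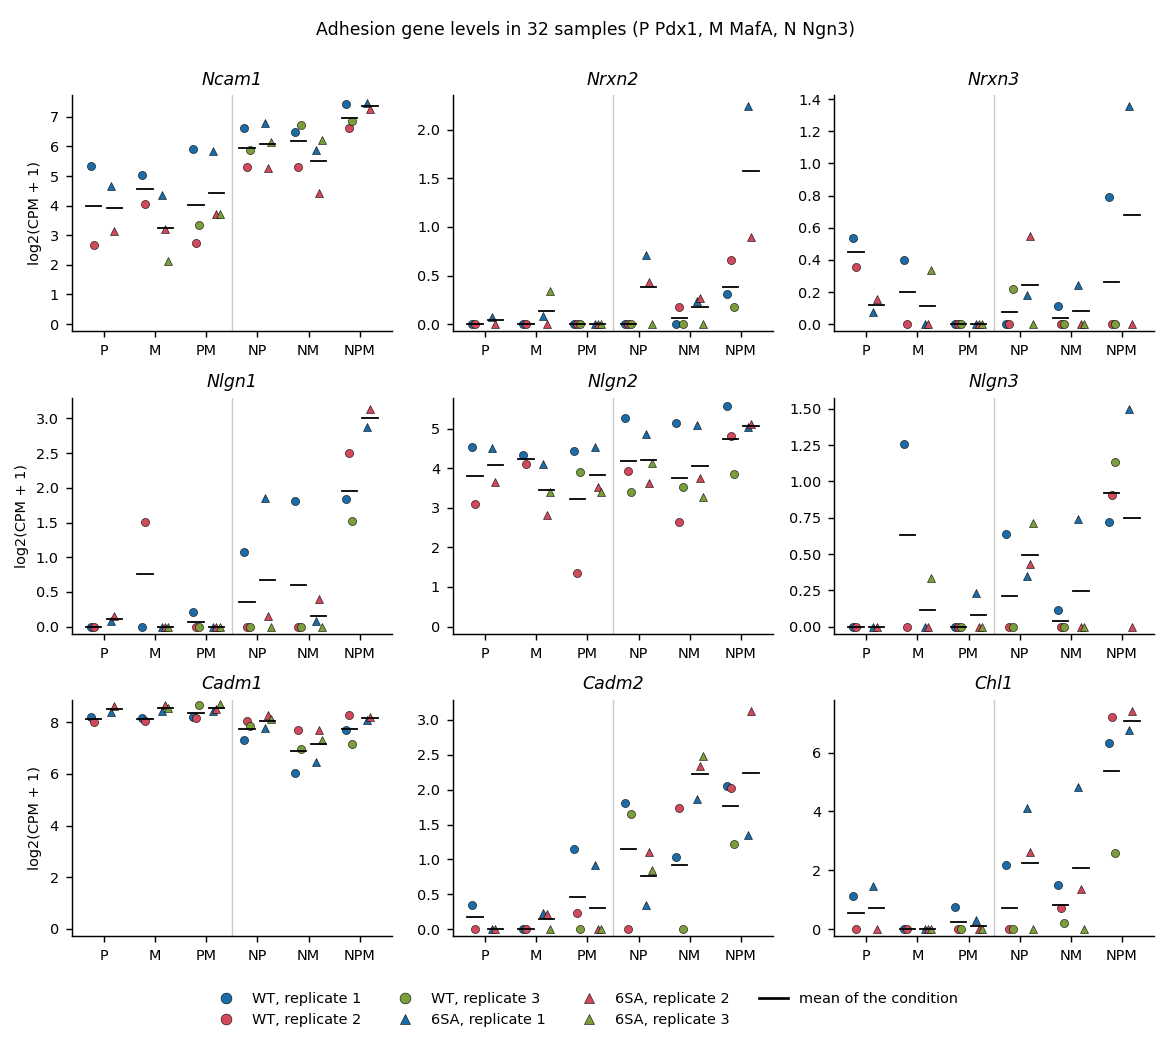
Level of each of the 9 genes in 32 samples, as log2(CPM + 1), by sorted combination (P, Pdx1; M, MafA; N, Ngn3), with WT cultures as circles, 6SA cultures as triangles, colours for the replicate and a line for the mean of each condition. Ncam1 and Chl1 were highest in Ngn3-Pdx1-MafA cells, Cadm1 was lowest in Ngn3-MafA cells, and Nrxn2, Nrxn3, Nlgn1 and Nlgn3 lay close to 0 in most samples.

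The genes differed widely in how much transcript they contributed, which was compared per kilobase of exon. With Ngn3, Cadm1 stood at 20.4 CPM per kb, Ncam1 at 10.7, Nlgn2 at 3.91 and Chl1 at 3.18, each as a mean of 6 condition means. Cadm2 and Nlgn1 followed at 0.244 and 0.153 CPM per kb, and Nlgn3, Nrxn2 and Nrxn3 lay below at 0.0481, 0.0377 and 0.0181. Without Ngn3 the order at the top was Cadm1 at 32.1 CPM per kb, Nlgn2 at 2.47 and Ncam1 at 2.39. Chl1 followed at 0.0239 CPM per kb, ahead of Cadm2 at 0.0171, so that it stood next to the rarest genes without Ngn3 and next to Nlgn2 with Ngn3. Summed over all samples, Nrxn3 had 56 counts, Nrxn2 had 99 and Nlgn3 had 100, against 82216 for Cadm1.

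**Figure D2:**
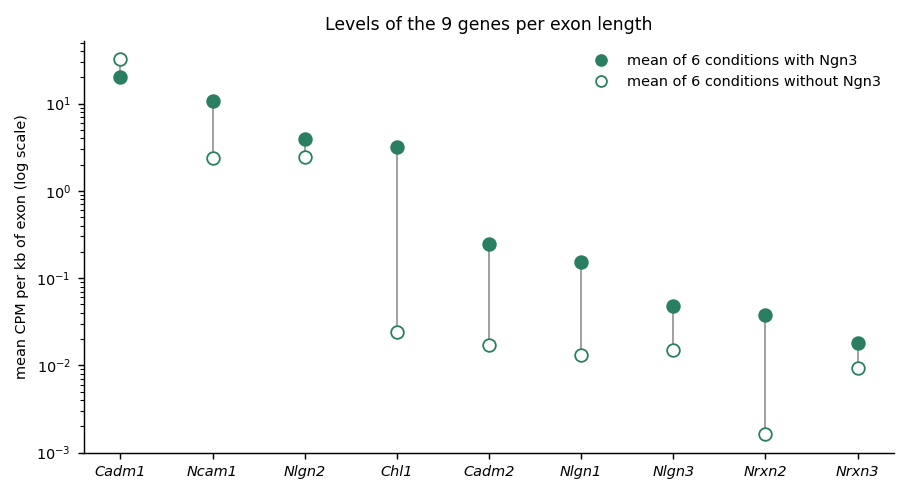
Mean level of each gene per kilobase of exon, on a log scale, over 6 conditions with Ngn3 (filled) and 6 without (open). Cadm1 alone lay lower with Ngn3, and the widest gap was that of Chl1, from 0.0239 to 3.18 CPM per kb.

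Ncam1 (ENSMUSG00000039542, chr9:49502136-49798925 of GRCm38, minus strand) encodes the neural cell adhesion molecule, also known as CD56. In the 5 Ngn3-Pdx1-MafA samples it stood at 171, 98.5 and 116 CPM in WT cultures and at 175 and 152 CPM in 6SA cultures. In the 6 samples with Pdx1 and MafA but no Ngn3 it stood at 59.7, 5.75 and 9.15 CPM in WT and 55.9, 12.1 and 12.3 CPM in 6SA cultures. All samples with Ngn3 were above all without in this combination. Ngn3-Pdx1 cells ranged from 37.6 to 111 CPM (median 64.4, n = 6) and Ngn3-MafA cells from 20.7 to 105 CPM (median 65.8, n = 6). Pdx1 cells ranged from 5.31 to 39.7 CPM (n = 4) and MafA cells from 3.43 to 31.8 CPM (n = 5), so that both of these pairs of groups overlapped. The overlap came with the replicate number, since samples without Ngn3 ranged from 19.4 to 59.7 CPM in replicate 1 and from 3.43 to 15.7 CPM in replicates 2 and 3. Within samples of the same condition pair and replicate number, Ncam1 was higher with Ngn3 in 14 of 14 pairs. The mean over the 6 pairs was a log2 fold change of 2.10 ± 0.37 (SE, edgeR quasi-likelihood, adjusted p = 9.2e-05). It remained called when each replicate was left out in turn. Beside Pdx1 and MafA the log2 fold change was 2.48 ± 0.60 (adjusted p = 0.0044), which was no longer called without replicate 2 (2.20, adjusted p = 0.078).

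**Figure D3:**
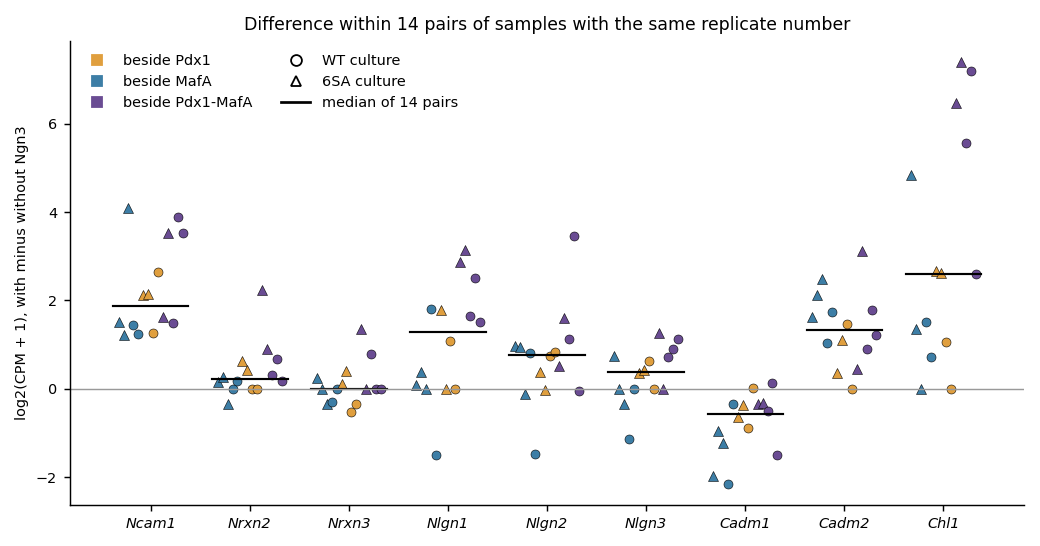
Difference in log2(CPM + 1) between samples with and without Ngn3 that share culture, partner factors and replicate number, for 14 pairs per gene, with WT cultures as circles, 6SA cultures as triangles, colours for the partner factors and a line at the median. All 14 Ncam1 points lie above 0 and 12 of 14 Cadm1 points lie below it, while the Chl1 points beside Pdx1-MafA reach 7.41.

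Chl1 (ENSMUSG00000030077, chr6:103510586-103750211, plus strand) encodes close homolog of L1, an immunoglobulin-family adhesion molecule of growing neurites. It had the widest range of the 9 genes in log2(CPM + 1). In Ngn3-Pdx1-MafA cells it stood at 79.5, 147 and 5.05 CPM in the WT replicates and at 108 and 169 CPM in the 6SA replicates. The lowest of these was the passage 5 sample. In Pdx1-MafA cells 4 of 6 samples had no count and the other two stood at 0.689 and 0.236 CPM, so that the groups did not overlap. The mean level was 102 ± 64.0 CPM (SD, n = 5) with Ngn3 and 0.154 ± 0.279 CPM (SD, n = 6) without. The log2 fold change beside Pdx1 and MafA was 9.08 ± 1.58 (SE, edgeR, adjusted p = 0.00026), and it depends on the prior count because of samples at 0.

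In cells with Ngn3 and a single partner, Chl1 was present in some replicates and absent in others. Ngn3-Pdx1 cells had 3.54, 0 and 0 CPM in the WT replicates and 16.5, 5.12 and 0 CPM in the 6SA replicates. Ngn3-MafA cells had 1.86, 0.652 and 0.151 CPM in WT and 27.5, 1.56 and 0 CPM in 6SA. Replicate 1 was the highest in each of these conditions and replicate 3 the lowest or level with it. Against Ngn3-Pdx1 cells, Ngn3-Pdx1-MafA cells had a 24.2-fold higher mean and a log2 fold change of 5.01 ± 1.28 (SE, edgeR, adjusted p = 0.039). Their median Neurog3 (167 against 38.5 CPM) and Pdx1 (150 against 33.2 CPM) were higher too, and the part of these in Chl1 was not tested. Chl1 was the only 1 of the 9 genes that edgeR called there, where 0.525% of genes were called higher. Against Ngn3-MafA cells, Ngn3-Pdx1-MafA cells had a 19.2-fold higher mean and a log2 fold change of 5.08 ± 1.28 (SE, edgeR, adjusted p = 0.033). Their median Neurog3 was higher here as well (167 against 58.1 CPM). Chl1 was again the only 1 of the 9 genes that edgeR called, where 1.17% were called higher, while DESeq2 called Cadm1 alone (adjusted p = 0.023). With the replicate number as a block, edgeR also called Cadm1, Ncam1 and Nlgn1 (adjusted p = 0.020, 0.035 and 0.041). Both comparisons share the Ngn3-Pdx1-MafA samples. Both Chl1 calls were lost with DESeq2 (adjusted p = 0.075 and 0.059) and without replicate 2.

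Without Ngn3, Chl1 was found in few samples. None of 5 MafA samples had a count, and among 4 Pdx1 samples those of replicate 1 stood at 1.17 and 1.74 CPM and those of replicate 2 at 0. Ngn3-MafA cells, with 494 counts against 0, were at least 111-fold above MafA cells when the latter were set at 3 counts over the group. The average over the 6 pairs was a log2 fold change of 6.31 ± 1.05 (SE, edgeR, adjusted p = 6.9e-05), higher in 12 of 14 pairs and equal at 0 in the other two. Without replicate 1 the log2 fold change was 7.07 and the call was lost (adjusted p = 1.00). The WT Pdx1 and WT Ngn3-Pdx1 samples then left had no Chl1 count, so that both sides of that pair were empty.

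**Figure D4:**
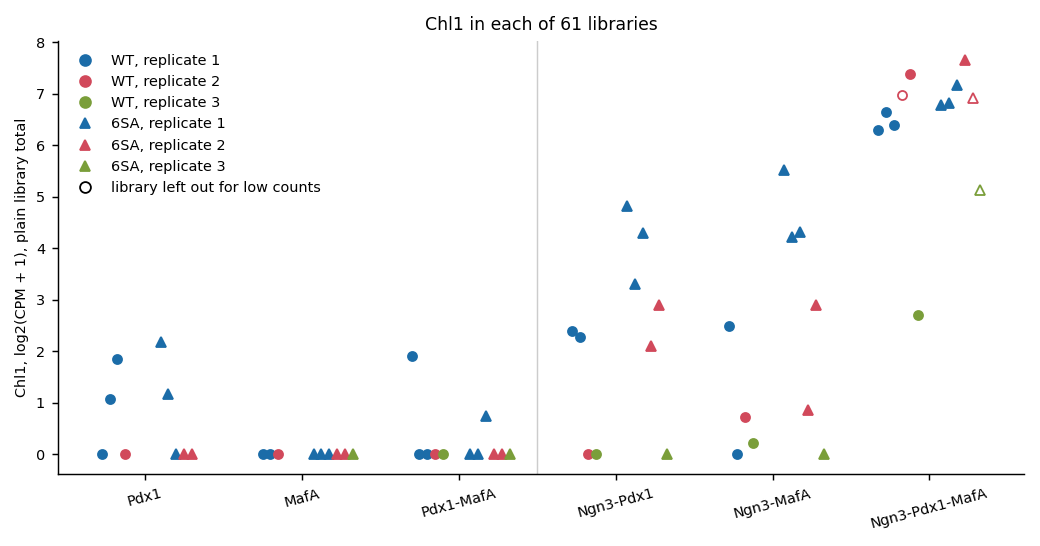
Chl1 in each of 61 libraries, as log2(CPM + 1) of the plain library total, by sorted combination, with WT as circles, 6SA as triangles, colours for the replicate and open symbols for 3 libraries left out for low counts. The kept Ngn3-Pdx1-MafA libraries lie above all libraries without Ngn3, the lowest being the WT replicate 3 library at 5.52 CPM, and the open symbols lie at 125, 120 and 34.3 CPM.

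The neuroligins are the postsynaptic partners of neurexins, and the 3 members behaved differently. Nlgn1 (ENSMUSG00000063887, chr3:25426215-26332460, minus strand), best known from excitatory synapses, stood at 2.59, 4.68 and 1.86 CPM in WT and at 6.31 and 7.81 CPM in 6SA Ngn3-Pdx1-MafA cells. In Pdx1-MafA cells it had no count in 5 of 6 samples and 0.153 CPM in the last, and the groups did not overlap. The 261 counts with Ngn3 against 2 without gave a ratio of summed levels of 143 (exact 95% counting interval 39.2 to 1186). That interval covers counting error only and not the spread between samples. In Ngn3-Pdx1 cells it reached 2.63 CPM and in Ngn3-MafA cells 2.5 CPM, both in replicate 1, with replicates 2 and 3 at 0.311 CPM or less, and 1 MafA sample without Ngn3 had 1.85 CPM. Nlgn1 was called in the mean of 6 pairs (log2 fold change 4.39 ± 1.02, SE, edgeR, adjusted p = 0.0028) and beside Pdx1 and MafA (7.23 ± 1.73, adjusted p = 0.0051). The first call was lost without replicate 1, where the log2 fold change was 2.04. The WT Pdx1 and WT Ngn3-Pdx1 samples then left had no Nlgn1 count, so that both sides of that pair were empty. The second call was lost without replicate 2, where the log2 fold change was 6.87.

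Nlgn2 (ENSMUSG00000051790, chr11:69823122-69837784, minus strand), the neuroligin of inhibitory synapses, was counted in every sample. It stood at 46.5, 27.2 and 13.4 CPM in WT and at 31.7 and 33.9 CPM in 6SA Ngn3-Pdx1-MafA cells. Pdx1-MafA cells had 20.6, 1.57 and 14 CPM in WT and 22.0, 10.5 and 9.57 CPM in 6SA cultures, and the groups overlapped. Replicate 1 was the highest in every condition except 6SA Ngn3-Pdx1-MafA cells, with medians of 33.7 CPM in replicate 1, 13.4 in replicate 2 and 10.4 in replicate 3 of the samples with Ngn3. The log2 fold change was 0.63 ± 0.34 (SE, edgeR, adjusted p = 0.21) in the mean of 6 pairs, and Nlgn2 was higher in 10 of 14 pairs. Beside Pdx1 and MafA it was 1.24 ± 0.56, which edgeR did not call (adjusted p = 0.13) and DESeq2 did (adjusted p = 0.047).

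Nlgn3 (ENSMUSG00000031302, chrX:101299168-101325963, plus strand), found at both kinds of synapse, was low throughout. In Ngn3-Pdx1-MafA cells it stood at 0.648, 0.878 and 1.2 CPM in WT and at 1.83 and 0 CPM in 6SA samples. In Pdx1-MafA cells it stood at 0.177 CPM in 1 of 6 samples and at 0 in the others, and the groups overlapped at 0. It was called in the mean of 6 pairs (log2 fold change 2.76 ± 0.91, SE, edgeR, adjusted p = 0.031) and beside Pdx1 and MafA (adjusted p = 0.033). DESeq2 called neither (adjusted p = 0.17 and 0.12). Both calls were lost without replicate 1 and without replicate 2, and the second also without replicate 3 (edgeR, adjusted p = 0.13). Without replicate 1 the 6SA Ngn3-Pdx1-MafA and 6SA Pdx1-MafA samples left had no Nlgn3 count, so that both sides of that pair were empty. With 1 common Ngn3 term in place of 6 pairs, a model added after the data were seen, Nlgn3 was not called either (2.70, adjusted p = 0.068). In MafA cells without Ngn3 a single WT sample held 1.39 CPM, above all 6 Ngn3-MafA samples. Nlgn3 shares 3823 exon bases with the annotated gene Gm21986 on the same strand, so its counts are uncertain.

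The SynCAM genes moved in opposite directions. Cadm1 (ENSMUSG00000032076, chr9:47530173-47857637, plus strand), an adhesion molecule of epithelia as well as synapses, was abundant in every sample. In Ngn3-MafA cells it stood at 64.4, 209 and 125 CPM in WT and at 87.3, 210 and 159 CPM in 6SA samples. MafA cells without Ngn3 had 289 and 263 CPM in WT and 346, 407 and 374 CPM in 6SA samples, all above every Ngn3-MafA sample. The log2 fold change beside MafA was -1.18 ± 0.27 (SE, edgeR, adjusted p = 0.0080), and it was not called with any 1 replicate left out (adjusted p = 0.078 to 0.27). Beside Pdx1 the ranges were 159 to 309 CPM with Ngn3 and 261 to 400 CPM without, and the log2 fold change of -0.40 ± 0.28 was not called (adjusted p = 0.64). Beside Pdx1 and MafA they were 144 to 314 CPM and 287 to 421 CPM, with a log2 fold change of -0.49 ± 0.27 (adjusted p = 0.23).

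In the mean of 6 pairs Cadm1 fell by 0.69 ± 0.16 on the log2 scale (SE, edgeR, adjusted p = 0.0019), and it was lower in 12 of 14 pairs. Without replicate 1 the log2 fold change was -0.51 and no longer called (adjusted p = 0.13). The Ngn3 effects beside Pdx1 and beside MafA differed by 0.78 ± 0.40 on the log2 scale, which was not called (edgeR, adjusted p = 1.00). Among the cells with Ngn3, Ngn3-Pdx1-MafA cells stood 0.82 ± 0.27 above Ngn3-MafA cells on the log2 scale. The main edgeR fit did not call this (adjusted p = 0.094), while DESeq2 (adjusted p = 0.023) and edgeR with the replicate number as a block (adjusted p = 0.020) did. Ngn3-Pdx1 cells stood 0.77 ± 0.26 above Ngn3-MafA cells on the log2 scale (edgeR, adjusted p = 0.34).

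Cadm2 (ENSMUSG00000064115, chr16:66655421-67620908, minus strand), whose product is found mainly in the nervous system, was low but rose. Ngn3-MafA cells had 1.05, 2.35 and 0 CPM in WT and 2.63, 4.05 and 4.58 CPM in 6SA samples. MafA cells had no count in the WT samples and 0.173, 0.162 and 0 CPM in the 6SA samples, so that only the WT passage 5 sample with Ngn3 lay within their range. Ngn3-Pdx1-MafA cells had 3.16, 3.07 and 1.33 CPM in WT and 1.56 and 7.73 CPM in 6SA samples, all above the highest Pdx1-MafA sample at 1.23 CPM. The log2 fold change was 4.39 ± 0.83 in the mean of 6 pairs (SE, edgeR, adjusted p = 0.00029) and 5.61 ± 1.63 beside MafA (adjusted p = 0.045), where it was not called with any 1 replicate left out (adjusted p = 0.054 to 0.55). Beside Pdx1 and MafA it was 3.06 ± 1.13, which the main edgeR fit did not call (adjusted p = 0.060) and DESeq2 did (adjusted p = 0.016). There edgeR called Cadm2 with RLE size factors, other gene filters, the newer quasi-likelihood setting and the replicate block. With all libraries, the first technical repeats or only the conditions compared it did not. Cadm2 was higher in 13 of 14 pairs and equal at 0 in the last, and without replicate 2 the mean of 6 pairs was not called (3.79, adjusted p = 0.056).

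The neurexins, presynaptic receptors of the neuroligins, were the lowest of the genes. Nrxn2 (ENSMUSG00000033768, chr19:6418731-6544169, plus strand) had 96 counts in the 17 samples with Ngn3 and 3 counts in the 15 without. Ngn3-Pdx1-MafA cells held 0.243, 0.585 and 0.133 CPM in WT and 3.73 and 0.868 CPM in 6SA samples, against no count in any of 6 Pdx1-MafA samples. That was at least 26.6-fold against 3 counts over the group, and the difference was called beside Pdx1 and MafA (edgeR, adjusted p = 0.0051), though not without replicate 1 (adjusted p = 0.18) or replicate 2 (0.13). In the mean of 6 pairs its fit was undetermined (log2 fold change 2.96, adjusted p = 1.00), since neither Pdx1 nor Ngn3-Pdx1 cells of the WT cultures had a count. The model with 1 common Ngn3 term, in which Nlgn3 lost its call, gave a log2 fold change of 3.31 (adjusted p = 0.0057).

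Nrxn3 (ENSMUSG00000066392, chr12:88722876-90334935, plus strand) had counts in 7 of 17 samples with Ngn3 and in 6 of 15 without. In Ngn3-Pdx1-MafA cells only replicate 1 held any, at 0.729 CPM in WT and 1.56 CPM in 6SA, and no Pdx1-MafA sample did. It was called beside Pdx1 and MafA (edgeR, adjusted p = 0.026), but a call on 2 samples of 1 replicate number vanished without replicate 1, where the log2 fold change was 0. In the mean of 6 pairs the log2 fold change was 1.17 ± 0.70 (adjusted p = 0.29) and was -0.53 without replicate 1. Nrxn2 had a count in 16 of 29 libraries with Ngn3 and Nrxn3 in 7 of 29, so that their absence from a sample cannot be shown at this depth.

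The Ngn3 effect beside each partner was taken from the 3 pairs of combinations over both cultures. Cells with Ngn3 alone were not analysed, so whether the effect needs a partner was not tested. The effect beside Pdx1 and MafA was not tested against that beside a single partner. Beside Pdx1 and MafA, 6 of 9 genes were called higher and 0 lower, where 9.42% and 8.4% of genes were called higher and lower. They were Chl1, Ncam1, Nlgn1, Nlgn3, Nrxn2 and Nrxn3, with DESeq2 calling 5 genes, of which Chl1, Ncam1 and Nlgn1 were shared, and giving no adjusted p for Nrxn2 and Nrxn3. Beside MafA, Cadm2 was called higher and Cadm1 lower, where 2.5% and 2.17% were called. Same-numbered samples deviated together in this pair of conditions, and when the replicate number entered as a block, Chl1 and Ncam1 were called as well (adjusted p = 0.00037 and 0.0013, against 0.057 and 0.070 without the block). Beside Pdx1, edgeR called 0 of 9, where 1.32% of genes were called higher, with 4 genes at an unadjusted p under 0.05. The fit of Nrxn2 was undetermined there. DESeq2 called Cadm2 and Ncam1. With the replicate block Ncam1 was called beside Pdx1 (log2 fold change 2.12, adjusted p = 0.0031) in place of 1.83 ± 0.66 without the block (adjusted p = 0.21). The 1 difference between partners that was tested was the Ngn3 effect beside Pdx1 minus that beside MafA. For it edgeR and DESeq2 called 0 of 9 genes, where 0% of all genes were called. An unadjusted p under 0.05 was reached by Nlgn3 alone in edgeR and by Cadm1 alone in DESeq2. The edgeR fit of Nrxn2, Nlgn1 and Cadm2 was undetermined (SE 393 to 6267), so these could not be judged.

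The form of Ngn3 was compared next. In WT cultures the Ngn3 effect was called for Ncam1, Chl1 and Cadm2, all higher, where 4.23% of genes were called higher. Chl1 and Cadm2 were not called without replicate 1 or with the first technical repeats, and Ncam1 was not called without replicate 3. Here too same-numbered samples deviated together, and the replicate block added Cadm1, lower (log2 fold change -0.73, adjusted p = 0.012). In 6SA cultures it was called for Ncam1, Chl1, Cadm2, Nlgn1 and Nrxn2, higher, and for Cadm1, lower, where 8.12% and 5.98% of genes were called. Cadm1 was not called with any 1 replicate left out (adjusted p = 0.096 to 0.24), with RLE size factors (0.064), without a gene filter (0.071) or with the first technical repeats (0.16). Nrxn2 was not called without replicate 1, without a gene filter (adjusted p = 0.061) or with the first technical repeats (0.083). Nlgn1 was not called without replicate 1. No edgeR call held in either culture without replicate 2. That fit left some conditions without replication, and the share of all genes called in it is not given here. The log2 fold changes were 1.85 ± 0.52 in WT and 2.34 ± 0.51 in 6SA cultures for Ncam1 and -0.66 ± 0.22 and -0.72 ± 0.23 for Cadm1. The difference between the cultures was 0.49 ± 0.69 for Ncam1 and -0.07 ± 0.32 for Cadm1. For Chl1, Nlgn1, Nlgn3, Cadm2, Nrxn2 and Nrxn3 the edgeR fit of this difference was undetermined (SE 1912 to 7052). These genes could not be judged. Ncam1, Cadm1 and Nlgn2, at 0.18 ± 0.66, were not called. DESeq2 called no gene of the 9, none had an unadjusted p under 0.05 in either tool, and 0% of all genes were called.

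The same comparison made directly between 6SA and WT cells with Ngn3 also called 0 of 9 in both tools, with 0% of all genes called by edgeR. Chl1 and Nrxn2 had an unadjusted p under 0.05 in edgeR and no gene had in DESeq2. The 6SA mean of Chl1 was 138 ± 42.9 CPM (SD, n = 2) and the WT mean 77.1 ± 70.9 CPM (SD, n = 3) in Ngn3-Pdx1-MafA cells. The 6SA mean held replicates 1 and 2, both at passage 2, while the WT mean also held the passage 5 sample at 5.05 CPM, and replicates 1 and 2 alone stood at 79.5 and 147 CPM in WT against 108 and 169 CPM in 6SA cells. Over the 3 combinations the log2 difference was 2.20 ± 0.94 (edgeR, adjusted p = 0.81), and the WT and 6SA samples overlapped. For Ncam1 it was -0.03 ± 0.47, for Nlgn2 0.06 ± 0.45 and for Cadm1 0.29 ± 0.22. In the cells without Ngn3, 6SA against WT cultures and Pdx1 against MafA each gave 0 of 9 calls in edgeR and in DESeq2, with 0% of all genes called. In the first the edgeR fit of Chl1, Nlgn1, Nlgn3, Cadm2, Nrxn2 and Nrxn3 was undetermined (SE 403 to 4127). In the second that of Nrxn2, Nlgn1 and Cadm2 was (SE 291 to 4514). These genes could not be judged there. An unadjusted p under 0.05 was reached in edgeR by none of the 9 genes in the first and by Chl1 and Nlgn3 in the second, and by none in DESeq2. Ngn3-Pdx1 against Ngn3-MafA cells also gave 0 of 9 in both tools, with Cadm1 at an unadjusted p under 0.05 in each and 0.0875% of genes called higher.

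Passage went with the replicate number and could be compared only within pairs. At passage 2, Ncam1 was higher with Ngn3 in 12 of 12 pairs and Chl1 in 11 of 12, and at passage 5 in 2 of 2 and 1 of 2. Cadm1 was lower in 10 of 12 pairs at passage 2 and in 2 of 2 at passage 5. Nlgn2 was higher in 10 of 12 pairs at passage 2 and in 0 of 2 at passage 5. The passage 5 pairs were both from replicate 3, so passage and replicate cannot be told apart.

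Across the 17 samples with Ngn3 the genes did not all vary together. Chl1 and Nlgn1 had a Pearson r of 0.84 in log2(CPM + 1), and Chl1 and Nlgn2 one of 0.72, whereas Cadm1 had r between -0.14 and 0.40 with the other 8. Chl1 had r of 0.88 with Pdx1 and 0.84 with Chga, and Cadm1 had r of 0.48 and -0.07. Among 15127 genes with a mean of at least 1 CPM, those most like Chl1 included Cyfip2 (r = 0.94) and Fam155a (0.94). Those most like Nlgn1 included Galnt14 (0.93) and Tmem179 (0.90), and the closest to Ncam1 were Cep170b (0.85), Rnf214 (0.83) and Klf16 (0.83). Cadm1 was closest to Ier2 (0.89), Atp1b1 (0.83) and the transcription factor gene Hhex (0.82), Cadm2 to Zxdb (0.79), Pink1 (0.76) and Frs3 (0.74), and Nlgn3 to Bex4 (0.85), Dtd1 (0.84) and Nudt16l1 (0.84). These values describe samples that share sorted combinations, cultures and depth, and carry no test.

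Other genes of neural and synaptic adhesion were counted from lists written by hand. Of 90 listed genes 73 could be tested, and in the mean of 6 pairs 24 were called higher and 9 lower, where 11.1% and 10.5% of all genes were. The median log2 ratio of mean levels was 1.35 over these genes, with those at 0 on one side set to 3 counts, against 0.09 over all genes tested. In the NCAM and L1 family 3 of 4 rose, with Nfasc at a log2 fold change of 5.74 ± 0.65, Ncam2 at 5.30 ± 0.74 and L1cam at 3.72 ± 0.85. Nfasc encodes neurofascin, an adhesion molecule of axon initial segments and nodes, and its median was 116 CPM with Ngn3 and 1.5 CPM without. The enzymes that put polysialic acid on Ncam1 split, with St8sia2 higher by 5.07 ± 1.17 and St8sia4 lower (-1.65 ± 0.34). Among the contactins and their partners 4 of 9 tested genes rose and 0 fell, led by Cntnap5b (6.09 ± 1.23), Cntnap2 (3.91 ± 0.85) and Cntn4 (3.88 ± 1.26).

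Partners of the neurexins and neuroligins also moved in both directions. Cadm4, a further SynCAM gene, was at a log2 fold change of 0.04 ± 0.63 and was not called. Of 14 tested neurexin ligands 5 rose and 2 fell. Nxph1, a secreted neurexophilin that binds α-neurexins, went from a median of 0 to 33.2 CPM (9.05 ± 0.58, adjusted p = 3.7e-11). Lrrtm3 (7.87 ± 1.24) and Lrrtm2 (1.11 ± 0.23), postsynaptic ligands, rose too. The latrophilins Adgrl2 (-1.39 ± 0.18) and Adgrl3 (-1.11 ± 0.26) fell. Mdga1, which binds neuroligins and blocks neurexin binding, rose by 2.63 ± 0.50, and Mdga2 had too few counts to judge.

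Among the LAR-type phosphatases and their ligands 2 of 11 tested genes rose, Lrrc4 (1.65 ± 0.37) and Lrfn3 (1.23 ± 0.26), and Ptprd fell (-1.50 ± 0.28). Of 7 teneurin and FLRT genes Tenm4 (2.04 ± 0.25) and Flrt1 (5.15 ± 0.85) rose, and Flrt3 (-2.83 ± 0.25) and Flrt2 (-1.51 ± 0.24) fell. Of 21 tested intracellular scaffold genes 5 rose, led by Apba1 (9.04 ± 1.00), Lin7b (2.20 ± 0.54) and Lin7a (3.48 ± 0.87), and 3 fell, which were Shank2 (-1.69 ± 0.31), Magi1 (-1.32 ± 0.25) and Magi3 (-0.68 ± 0.22). The medians of the log2 ratio were 0.36 for the LAR-type list and 0.26 for the scaffolds, closer to that of all genes than the 4.48 of the NCAM and L1 family.

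**Figure D5:**
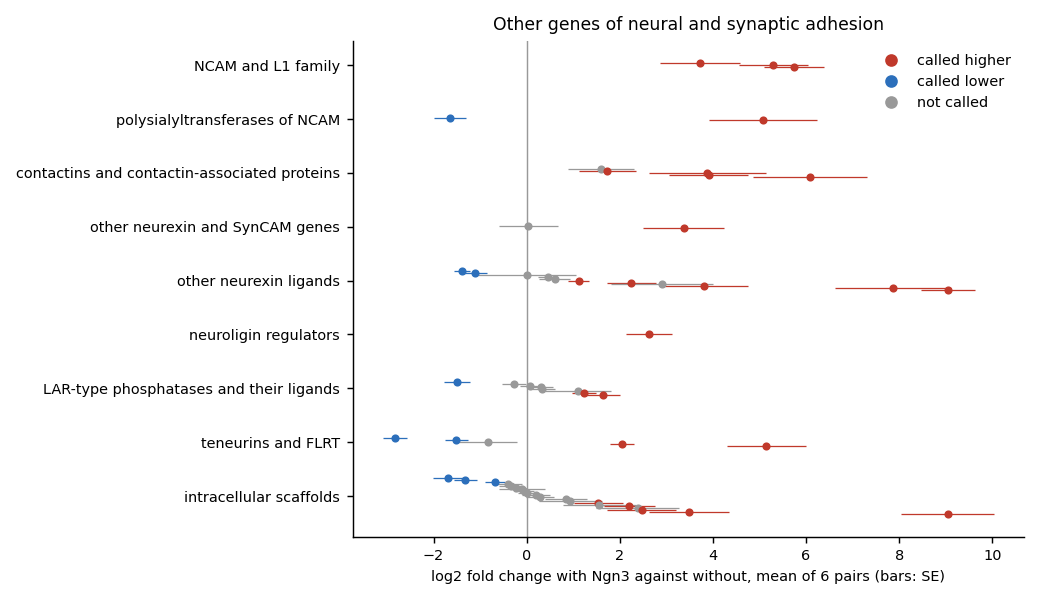
Log2 fold change with Ngn3 against without, mean of 6 pairs, with SE bars, for 57 related genes by list. Red points were called higher, blue lower and grey not called, and 16 tested genes whose fit was undetermined because conditions had no count are not drawn. The NCAM and L1 genes drawn all lie at 3.72 or above, while scaffold genes lie on both sides of 0.

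Ngn3 binds E-box motifs, written CANNTG, and members of that motif family can be read in promoter sequence. RefSeq sequences of the GRCm38.p6 build covered 5 of the 9 genes with 8 windows, of which the 250 bases before each start were searched on both strands. In the windows below capitals mark CANNTG, and the windows shown are those of Cadm2, which was called higher, and Nlgn2, which edgeR did not call. They were chosen after their letters were seen. Among genes called higher in the average over all pairs of conditions, only Cadm2 had a window with a match. Nrxn3, which edgeR called higher beside Pdx1 and MafA, had windows with matches too. Ncam1, Nlgn3 and Nrxn2, each called higher in at least some comparison, had no window to search. The windows are chr16:67620909-67621158 and chr11:69837785-69838034, both read 5′ to 3′ on the minus strand, the strand of transcription.
Cadm2: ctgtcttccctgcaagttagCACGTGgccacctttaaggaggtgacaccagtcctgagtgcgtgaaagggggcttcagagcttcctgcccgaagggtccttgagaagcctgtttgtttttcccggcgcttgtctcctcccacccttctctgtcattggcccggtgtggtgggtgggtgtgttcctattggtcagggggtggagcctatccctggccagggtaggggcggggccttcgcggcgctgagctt
Nlgn2: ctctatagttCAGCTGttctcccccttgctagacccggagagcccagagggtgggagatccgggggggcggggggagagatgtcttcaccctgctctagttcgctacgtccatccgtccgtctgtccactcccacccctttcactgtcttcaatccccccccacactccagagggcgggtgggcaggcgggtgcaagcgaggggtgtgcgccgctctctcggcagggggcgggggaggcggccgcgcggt
Each window held 1 match, and 66.2% of 32851 promoter windows of the same length held at least 1. The match in Nlgn2 was CAGCTG, a form that 13% of all windows held, and CAGATG was in neither. The Chl1 window and both Nlgn1 windows held no CANNTG, and the 3 Nrxn3 windows held 0, 1 and 5. A match is a description of the letters and not evidence of binding.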

How the data were processed

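RNA was sequenced from pools of 50 sorted cells. Per the submitters' processing notes the authors aligned reads to mm10 with GSNAP and counted them with HTSeq (0.5.3p3), on Ensembl release 81 per the methods. The deposited values are raw counts per gene and library, with 46078 genes, 45143 of which matched a symbol, and 92 spike-ins. The library protocol does not mark strand, so reads of the genes overlapping Ncam1, Nrxn2, Nrxn3, Nlgn1 and Cadm2 on the opposite strand cannot be told apart. The strand setting of the counting is not given in the sources used here.

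Libraries with over 1000000 gene counts, under 25% spike-in counts and over 10000 genes were kept, 58 of 61, and 3 were left out for gene counts. Technical repeats were summed, giving 32 samples (median 8490758.5 counts). A gene was tested if it had counts in 5 or more libraries and its log2(CPM + 1) varied by more than 0.001 (variance). edgeR 4.0.16 in R 4.3.3 fitted 1 model of 12 conditions with TMM scaling and the quasi-likelihood test, with Benjamini-Hochberg adjustment over 24004 genes and a threshold of 0.05. The scripts were tested on simulated data. Replicates are separate biological replicates per the labels, whose cultures are not described further. Gene positions and exon lengths are from GENCODE on GRCm38.

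Same-numbered samples with and without Ngn3 were checked by correlating their deviations from the condition means over 5000 genes. The correlation was over 0.1 in 12 of 14 pairs (median 0.348, range -0.423 to 0.756), the exceptions being 6SA Pdx1-MafA pairs. The numbers were therefore taken to pair samples beside Pdx1, beside MafA and in WT cultures, and not where those 2 pairs enter. The tallies over 14 pairs still include them. The 6SA Ngn3-Pdx1-MafA condition had 2 samples, whose deviations mirror each other, so the 2 exceptions are not independent.

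Alternatives were DESeq2 1.42.0, RLE size factors, other gene filters, the newer quasi-likelihood setting, the replicate block, all libraries, first technical repeats, each replicate left out, only the conditions compared and, added after the data were seen, a common Ngn3 term. The 9 genes and all lists were chosen with earlier results of these data known. The genes named are all 9, the 3 genes most correlated with each called one, and up to 3 genes per list and direction by adjusted p, except genes that are not reported here. The 3 left-out libraries appear only in the closing section and in the plot of Chl1 by library.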

Additional observations from a re-analysis of the deposited data

Results flagged for a closer look

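The 3 libraries left out of every comparison, all of Ngn3-Pdx1-MafA cells, held signal of the adhesion genes above the highest Pdx1-MafA library of the same culture (plain CPM, over 3 counts). In the WT replicate 2 library, with 625650 gene counts, Ncam1 stood at 158 CPM against at most 75.6, Chl1 at 125 against at most 2.76, Nlgn2 at 36.8 against at most 27.5, Cadm2 at 9.59 against at most 2.57, and Nrxn3 at 9.59 against 0. Nrxn3 and Cadm2 each rested on 6 counts there. In the 6SA replicate 2 library, with 241563 gene counts, Ncam1 stood at 236 CPM against at most 56.6, Chl1 at 120 against at most 0.678, and Nlgn2 at 33.1 against at most 24.6 on 8 counts. In the 6SA replicate 3 library, with 408733 gene counts and the only library of that sample, Ncam1 stood at 97.9 CPM and Chl1 at 34.3 CPM on 14 counts. Other genes with over 3 counts did not stand above those libraries. Cadm1 stood at 99.1 CPM in the WT replicate 2 library, at 120 CPM in the 6SA replicate 2 library and at 117 CPM in the 6SA replicate 3 library, where the lowest Pdx1-MafA libraries held 239 CPM in WT and 253 CPM in 6SA cultures. Nlgn2 stood at 9.79 CPM on 4 counts in the 6SA replicate 3 library. No condition had 4 or more samples, so no sample was compared with its group for distance.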

How the results depend on the processing

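The number of the 9 genes called in each comparison was recomputed under each alternative. With each replicate left out in turn it was 2 to 6 for the mean of 6 pairs (6 with all samples), 0 to 2 in WT cultures (3), 0 to 5 in 6SA cultures (6), 0 to 1 beside Pdx1 (0), 0 to 1 beside MafA (2), 1 to 4 beside Pdx1 and MafA (6), 0 to 2 for MafA added to Ngn3-Pdx1 (1) and 0 to 1 for Pdx1 added to Ngn3-MafA (1). The low counts came without replicate 1 for the mean of 6 pairs and without replicate 2 in the others (beside Pdx1 also without replicate 3). Over all genes tested, 5168 were called in the mean of 6 pairs and 4279 beside Pdx1 and MafA with all samples. Fewer of all genes were called without replicate 1 and without replicate 2, fits that left some conditions without replication. In the mean of 6 pairs the fewest of all genes were called without replicate 2, but the fewest of the 9 without replicate 1. Beside Pdx1 the count was 2 with DESeq2, 2 without a gene filter and 1 with the replicate block. Beside MafA it was 4 with DESeq2, 4 without a gene filter, 4 with the replicate block, 4 with only the conditions compared and 1 with the first technical repeats. With the first technical repeats it was also 1 in WT cultures, 0 for MafA added to Ngn3-Pdx1 and 0 for Pdx1 added to Ngn3-MafA. For MafA added it was 0 with DESeq2. For Pdx1 added it was 3 without a gene filter and 4 with the replicate block. Without a gene filter it was 1 in place of 0 for the Ngn3 effect beside Pdx1 minus that beside MafA, for 6SA against WT cells with Ngn3 and for Pdx1 against MafA cells. The causes were not tested. The block also added Nlgn2 to the mean of 6 pairs (adjusted p = 0.037) and Cadm2 and Nlgn2 beside Pdx1 and MafA (adjusted p = 0.036 and 0.019), where same-numbered samples did not all deviate together. Nrxn3 lost its direction without replicate 1, from values of up to 1.56 in the mean of 6 pairs to -0.53, and from up to 6.17 beside Pdx1 and MafA to 0, with each replicate left out in turn. In a selected set of single-gene values, 280 kept their direction and side of the threshold, 59 fell below it, 11 passed it and 2 lost their direction. The set held no value beside Pdx1 and not all 9 genes in the other comparisons. Passes such as those of Chl1 and Ncam1 beside MafA are therefore not counted in it. Depth limits Nrxn2, Nrxn3 and Nlgn3 most, with at most 100 counts each in all samples together.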
